A study of Mus musculus with 12 samples.

Results

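ieCtnnb1 is an intestinal enhancer of *Ctnnb1*, the gene for beta-catenin, and was removed from the mouse germline with CRISPR/Cas9. The small intestinal crypts of adult homozygous ieCtnnb1 knockout mice and of wild-type mice on a C57BL/6 background were compared here by RNA sequencing. The comparison used 6 of the 12 libraries of the series, 3 of each genotype, all without treatment. Of the 54532 genes in the deposited crypt table, 14176 had a mean FPKM of at least 0.5 over these 6 libraries and were tested. FPKM is here the fragment count divided by gene length and by a scaling factor for each library. The genes were then read as 28 lists of secretory, absorptive, regional, stem, metabolic and stress genes, together with 8 lists that mark cell types.

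Beta-catenin is the transcriptional partner of TCF/LEF proteins in the Wnt pathway, which maintains the stem cells of the crypt base and drives the maturation of Paneth cells. Cells that leave the crypt base divide and then commit either to the absorptive lineage or, under the factor ATOH1, to the secretory lineages. Absorptive maturation is accompanied by fat uptake and by a larger share of oxidative metabolism.

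The level of *Ctnnb1* (chromosome 9, plus strand) was 121, 134 and 123 FPKM in wild-type replicates 1 to 3 and 102, 104 and 105 FPKM in knockout replicates 1 to 3. All 3 knockout libraries were lower than every wild-type library, with a log2 fold change of -0.28, standard error 0.12, limma adjusted p = 0.849 after Benjamini-Hochberg adjustment. The removed sequence is not part of the *Ctnnb1* transcript, so RNA levels do not show the deletion itself.

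Each library had an epithelial profile. All 15 epithelial markers passed the level cutoff, with summed FPKM of 5707, 6328 and 6666 in wild-type libraries and 6331, 7456 and 6401 in knockout libraries. The adhesion gene *Epcam* stood at 670.3, 743 and 797 FPKM in wild-type libraries and at 659, 791 and 716 FPKM in knockout libraries, and the groups overlapped. Only 5 of 18 stromal and muscle markers and 3 of 13 endothelial markers reached the cutoff. The endothelial cadherin gene *Cdh5* was at 0 FPKM in 4 of 6 libraries.

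Some libraries stood apart within their group. On the first principal component, which held 31.9% of the variance, wild-type replicates 1 to 3 scored -27.8, 4.48 and 46.2 and knockout replicates 1 to 3 scored -5.14, -18.6 and 0.860. Wild-type replicate 3 was the farthest from the rest. The second component held 21.5% and separated the groups, with scores of 17.1, 30.7 and 0.728 in wild-type libraries and -27.9, -9.19 and -11.4 in knockout libraries. A different pair, wild-type replicates 1 and 2, carried stomach transcripts. The stomach mucus peptide gene *Tff2* was at 122, 53.6 and 1.09 FPKM in wild-type libraries and at 0.105, 3.37 and 0.122 FPKM in knockout libraries. Pancreatic transcripts were found in both genotypes. The pancreatic protease gene *Ctrb1* was at 3.38, 5.88 and 0.145 FPKM in wild-type libraries and at 0.490, 5.64 and 7.38 FPKM in knockout libraries. Several list medians depended on which library was included.

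The fragments assigned to genes numbered 14457896, 16042558 and 16074777 in wild-type libraries and 15717741, 15819430 and 14685020 in knockout libraries. The 13 protein-coding genes of the mitochondrial genome took 13.3%, 18.4% and 14.7% of fragments in wild-type libraries and 11.3%, 10.5% and 14.5% in knockout libraries. The highest values came from wild-type libraries, but the groups overlapped. The 50 most abundant genes held 23.8%, 30.0% and 28.4% of fragments in wild-type libraries against 22.5%, 21.6% and 25.8% in knockout libraries.

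No gene differed between the genotypes after adjustment. With limma, 0 of 14176 genes (0.0%) passed at an adjusted p of 0.05, and the smallest value reached was 0.728. At an unadjusted p under 0.05 there were 494 genes higher in knockout crypts (3.48%) and 335 lower (2.36%). With limma-voom on recovered fragments these counts were 455 and 350, and again 0 genes passed adjustment. When libraries were rescaled without the 50 most abundant genes, 313 genes were higher and 475 lower, so the balance between directions depended on scaling. Without wild-type replicate 3, 3 stomach genes passed adjustment and the unadjusted counts were 735 and 350. Without knockout replicate 1 they were 241 and 217, and without wild-type replicate 1 they were 700 and 641.

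For 963 genes (6.79%) all knockout values lay above all wild-type values, and for 730 (5.15%) all lay below. An exact permutation test of 3 against 3 has 20 splits, so its two-sided p for any such gene is 0.1 and can go no lower. Across all 14176 genes the median log2 fold change was 0.01, with an interquartile range of -0.14 to 0.16, and 52.8% of genes had a value above 0. The median standard error was 0.18. The study counts its replicates as mice, and these p-values measure the spread between these samples. In bulk RNA, fewer cells of a type and less RNA per cell cannot be told apart. Fold changes are on log2(FPKM + 0.5), a scale on which differences at low FPKM appear smaller than they are.

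**Figure D1:**
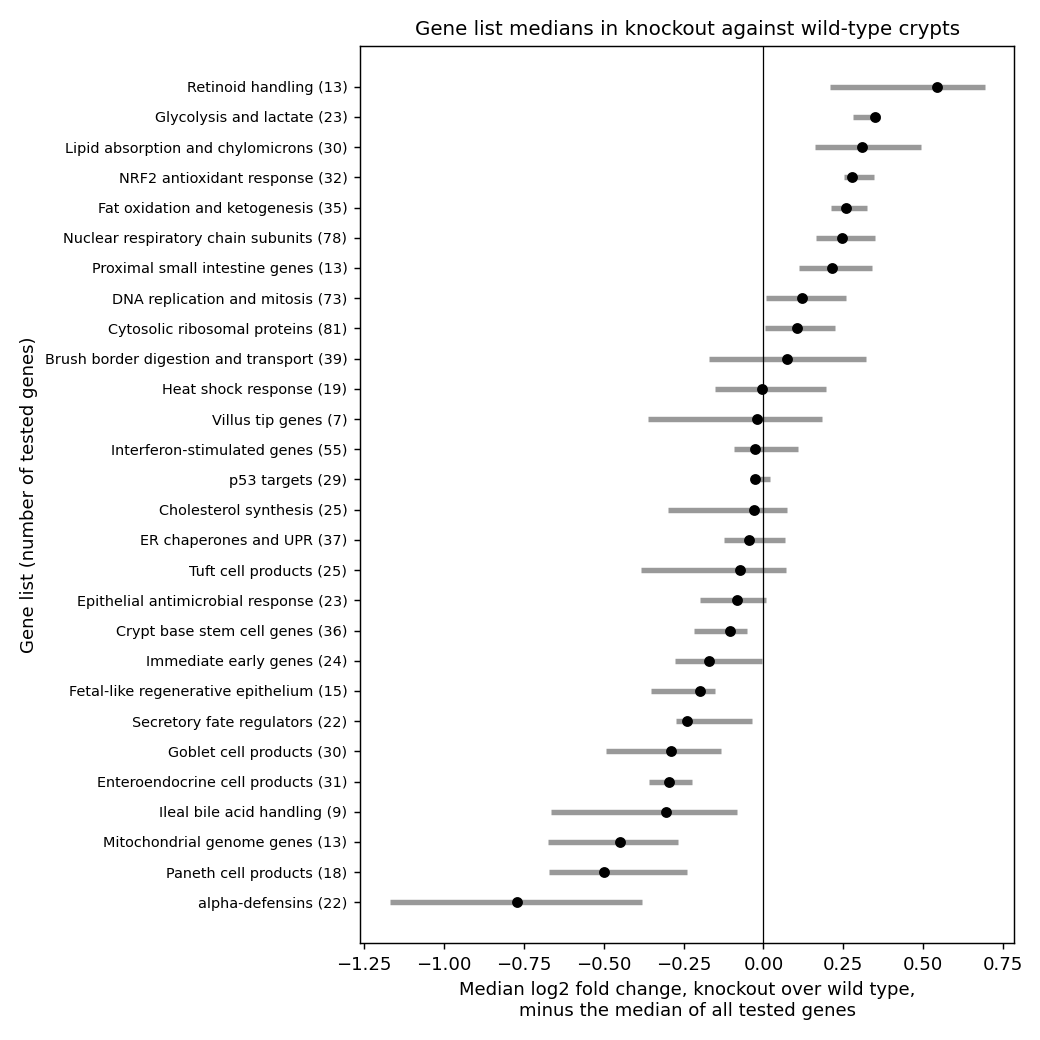
Median log2 fold change of each gene list minus the median of all tested genes (points), with the range over the 6 fits that each left out 1 library (bars). The direction of the villus tip and p53 target lists reversed under 1 alternative scaling each.

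Secretory lists lay mostly on the low side. Of 22 alpha-defensin genes, antimicrobial peptides of Paneth cell granules, 21 were lower in knockout crypts, 3 of them at unadjusted p under 0.05 (2.36% of all genes). In 3 of 22 (13.6%) the groups did not overlap, against 5.15% of all genes. The list median, given here and for every list minus the median of all tested genes, was -0.77. It was -0.38 without wild-type replicate 3 and -1.17 without wild-type replicate 1. Summed FPKM was 23287, 37576 and 81808 in wild-type libraries and 25982, 24339.7 and 22792 in knockout libraries. Wild-type replicate 1 lay among the knockout values, and wild-type replicate 3 was far above every other library.

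The member with the lowest p was *Defa35*, at 83.7, 82.3 and 138 FPKM in wild-type libraries and 43.2, 45.1 and 56.2 FPKM in knockout libraries. The groups did not overlap, with a log2 fold change of -1.03, standard error 0.23, limma adjusted p = 0.728. Its log2 fold change ranged from -1.16 to -0.79 when libraries were left out singly. *Defa2* was at 561, 949.6 and 2248 FPKM in wild-type libraries and 236, 398 and 405 FPKM in knockout libraries, again without overlap. All 3 knockout values were lower, with a log2 fold change of -1.66, standard error 0.50, limma adjusted p = 0.797, and the fold change ran from -2.12 to -1.12 with 1 library left out. *Defa22* was at 3361, 5302 and 6867 FPKM in wild-type libraries and 3387, 3394 and 2792 FPKM in knockout libraries, where wild-type replicate 1 overlapped the knockout group. The most abundant member, *Defa24*, was at 7359, 10163 and 32836 FPKM in wild-type libraries and 9438, 7629 and 8045 FPKM in knockout libraries, also overlapping. Alpha-defensin genes are near copies of each other, so the level of any single member is uncertain.

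Promoter sequences were available for 12 of the 22 tested alpha-defensin genes, as 300 bases of RefSeq GRCm38.p6 from 250 before to 50 after the start site. The TCF/LEF letters CTTTGAT or CTTTGTT, or their complements ATCAAAG and AACAAAG, occurred in 12 of these 12 promoters (100%). They occurred in 3066 of 32851 promoters of all genes (9.33%), in 6.58% of the promoters of tested genes, in 4 of 16 promoters of other Paneth cell genes (25%) in 2 of 7 of proximal small intestine genes (28.6%) and in 3 of 37 of stem cell genes (8.11%). The alpha-defensin promoters resemble each other, so the 12 are not independent. The longest run shared by *Defa35* and *Defa2* was 57 bases, that of *Defa35* and *Defa30* 17 bases and that of *Defa2* and *Defa30* 13 bases. A match describes the sequence and says nothing on binding. Below, 3 of the promoters are shown because their genes share these letters and Paneth cell expression, with the matches in capitals. The promoter of *Defa35* (chr8:21064788-21065087, plus strand) held 2 matches, the first at position -127 from the start site.

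Defa35: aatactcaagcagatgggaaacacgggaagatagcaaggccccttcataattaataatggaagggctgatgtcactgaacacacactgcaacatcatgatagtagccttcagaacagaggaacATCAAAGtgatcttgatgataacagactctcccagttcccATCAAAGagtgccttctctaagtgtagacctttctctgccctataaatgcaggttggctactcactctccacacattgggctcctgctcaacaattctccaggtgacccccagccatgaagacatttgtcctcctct

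The promoter of *Defa2* (chr8:21378267-21378566, plus strand) also held 2 matches, the first at position -112.

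Defa2: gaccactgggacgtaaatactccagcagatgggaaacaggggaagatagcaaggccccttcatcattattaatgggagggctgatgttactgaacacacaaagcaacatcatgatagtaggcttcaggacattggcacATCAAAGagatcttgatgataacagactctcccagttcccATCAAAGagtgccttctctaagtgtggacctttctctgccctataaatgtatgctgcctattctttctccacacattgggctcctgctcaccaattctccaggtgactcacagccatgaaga

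The promoter of *Defa30* (chr8:21134400-21134699, plus strand) held 1 match, at position -142.

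Defa30: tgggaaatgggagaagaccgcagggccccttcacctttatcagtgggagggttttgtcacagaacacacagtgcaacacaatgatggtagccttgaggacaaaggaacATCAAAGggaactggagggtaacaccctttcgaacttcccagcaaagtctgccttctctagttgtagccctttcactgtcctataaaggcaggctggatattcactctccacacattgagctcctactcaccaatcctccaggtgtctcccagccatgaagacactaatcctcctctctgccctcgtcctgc

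Of 20 other Paneth cell products, 18 were tested and the ribonuclease genes *Ang5* and *Ang6* were at 0 FPKM in every library. Among the 18, 16 were lower in knockout crypts, 4 at unadjusted p under 0.05, and in 5 (27.8%) the groups did not overlap, against 2.36% and 5.15% of all genes. The list median was -0.50, and -0.24 without wild-type replicate 3. The lysozyme gene *Lyz1*, the most abundant member, was at 7348, 10821 and 11466 FPKM in wild-type libraries and 7061, 6169 and 6499.7 FPKM in knockout libraries. Every knockout value was lower, with a log2 fold change of -0.56 and -0.22 under quantile normalization, standard error 0.33, limma adjusted p = 0.887. The lectin gene *Itln1* was at 2118, 3092 and 4039 FPKM in wild-type libraries and 2436, 2107 and 2326 FPKM in knockout libraries, with overlap at wild-type replicate 1. The ribonuclease gene *Ang4* did not follow, at 1155, 1754 and 2031 FPKM in wild-type libraries and 1310.1, 921 and 3014 FPKM in knockout libraries, where knockout replicate 3 was the highest of the 6.

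All 30 goblet cell products were tested, and 27 were lower in knockout crypts, 1 at unadjusted p under 0.05 (2.36% of all genes). Only 1 (3.33%) had groups without overlap, against 5.15% of all genes, and the list median was -0.29, or -0.13 without wild-type replicate 2 and -0.49 without knockout replicate 3. The main mucin gene *Muc2* was at 283, 394 and 242 FPKM in wild-type libraries and 234, 280.4 and 414 FPKM in knockout libraries, fully overlapping. The trefoil peptide gene *Tff3*, the most abundant member, was at 1828, 3011 and 3026 FPKM in wild-type libraries and 1808, 2288 and 2407 FPKM in knockout libraries. Its groups overlapped, and the sign of its difference reversed under quantile normalization. The goblet cell stress sensor gene *Ern2* was at 15.4, 24.3 and 32.3 FPKM in wild-type libraries and 11.9, 10.7 and 16.6 FPKM in knockout libraries. Knockout replicate 3 exceeded wild-type replicate 1, with a log2 fold change of -0.82, standard error 0.29, limma adjusted p = 0.806. The mucin-folding gene *Agr2* was at 434, 711 and 647 FPKM in wild-type libraries and 323, 453 and 561 FPKM in knockout libraries, with overlapping groups and a log2 fold change of -0.43 and -0.21 without knockout replicate 1.

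Enteroendocrine genes were also mostly lower in knockout crypts. Of 36 listed, 31 were tested, and 26 were lower in knockout crypts, 8 at unadjusted p under 0.05, with no overlap in 9 (29.03%), against 2.36% and 5.15% of all genes. Their median was -0.30 and stayed between -0.36 and -0.22 with 1 library left out. Mean log2 level over members was 2.72, 2.76 and 2.84 in wild-type libraries and 2.23, 2.61 and 2.64 in knockout libraries, without overlap. Summed FPKM was 589.6, 598 and 848 in wild-type libraries and 443, 509 and 698 in knockout libraries, with overlap. The most abundant member was *Reg4*, with a mean of 186 FPKM, which is also listed with epithelial antimicrobial genes.

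The granule protein gene *Chga* was at 43.7, 34.5 and 58.5 FPKM in wild-type libraries and 22.7, 34.4 and 33.7 FPKM in knockout libraries. The highest knockout value was just under the lowest wild-type value, with a log2 fold change of -0.57 and -0.38 without wild-type replicate 3, standard error 0.24, limma adjusted p = 0.848. A second granule gene, *Scg2*, was at 2.26, 2.63 and 1.85 FPKM in wild-type libraries and 1.099, 1.42 and 1.56 FPKM in knockout libraries, lower in all 3 knockout libraries (log2 fold change of -0.56, limma adjusted p = 0.797). The somatostatin gene *Sst* was at 74.00, 84.6 and 79.5 FPKM in wild-type libraries and 56.1, 60.7 and 65.8 FPKM in knockout libraries. All knockout values were lower, with a log2 fold change of -0.38, standard error 0.12, limma adjusted p = 0.799. Not all hormones had this direction. The cholecystokinin gene *Cck* was at 13.6, 14.8 and 15.98 FPKM in wild-type libraries and 15.7, 21.6 and 18.7 FPKM in knockout libraries, where the groups overlapped by 1 library and the log2 fold change was 0.32 and 0.21 without knockout replicate 2. *Neurog3*, the factor that specifies endocrine progenitors, was at 3.67, 4.81 and 4.12 FPKM in wild-type libraries and 3.85, 4.89 and 4.21 FPKM in knockout libraries, an almost complete overlap.

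Of 30 tuft cell genes 25 were tested, with 20 lower in knockout crypts. For 0 of them the groups did not overlap, against 6.79% of all genes higher and 5.15% lower. The median of the list was -0.07 and reversed sign in 2 of the 6 fits with 1 library left out, with 0.07 without knockout replicate 1 and -0.38 without knockout replicate 3. The tuft cell channel gene *Trpm5* was at 5.88, 7.901 and 7.598 FPKM in wild-type libraries and 4.39, 4.33 and 9.98 FPKM in knockout libraries, with knockout replicate 3 the highest. Summed FPKM of the list, 98.02, 135 and 137 in wild-type libraries and 86.1, 91.4 and 191 in knockout libraries, was also highest in knockout replicate 3.

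Among 22 tested regulators of secretory fate, 17 were lower in knockout crypts, 1 at unadjusted p under 0.05, and 1 (4.55%) had no overlap, against 2.36% and 5.15% of all genes. The list median of -0.24 was -0.04 without wild-type replicate 2. *Bhlha15*, a factor for the secretory apparatus of Paneth and goblet cells, was at 11.1, 17.1 and 15.9 FPKM in wild-type libraries and 6.86, 7.84 and 11.02 FPKM in knockout libraries. Each knockout library was lower, with a log2 fold change of -0.75, standard error 0.23, limma adjusted p = 0.797. *Gfi1*, which separates Paneth and goblet from endocrine fate, was at 3.47, 5.83 and 5.705 FPKM in wild-type libraries and 3.33, 3.69 and 3.51 FPKM in knockout libraries, with wild-type replicate 1 inside the knockout range. *Atoh1* itself was at 24.2, 41.1 and 24.2 FPKM in wild-type libraries and 20.3, 20.9 and 33.2 FPKM in knockout libraries, and the groups overlapped.

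**Figure D2:**
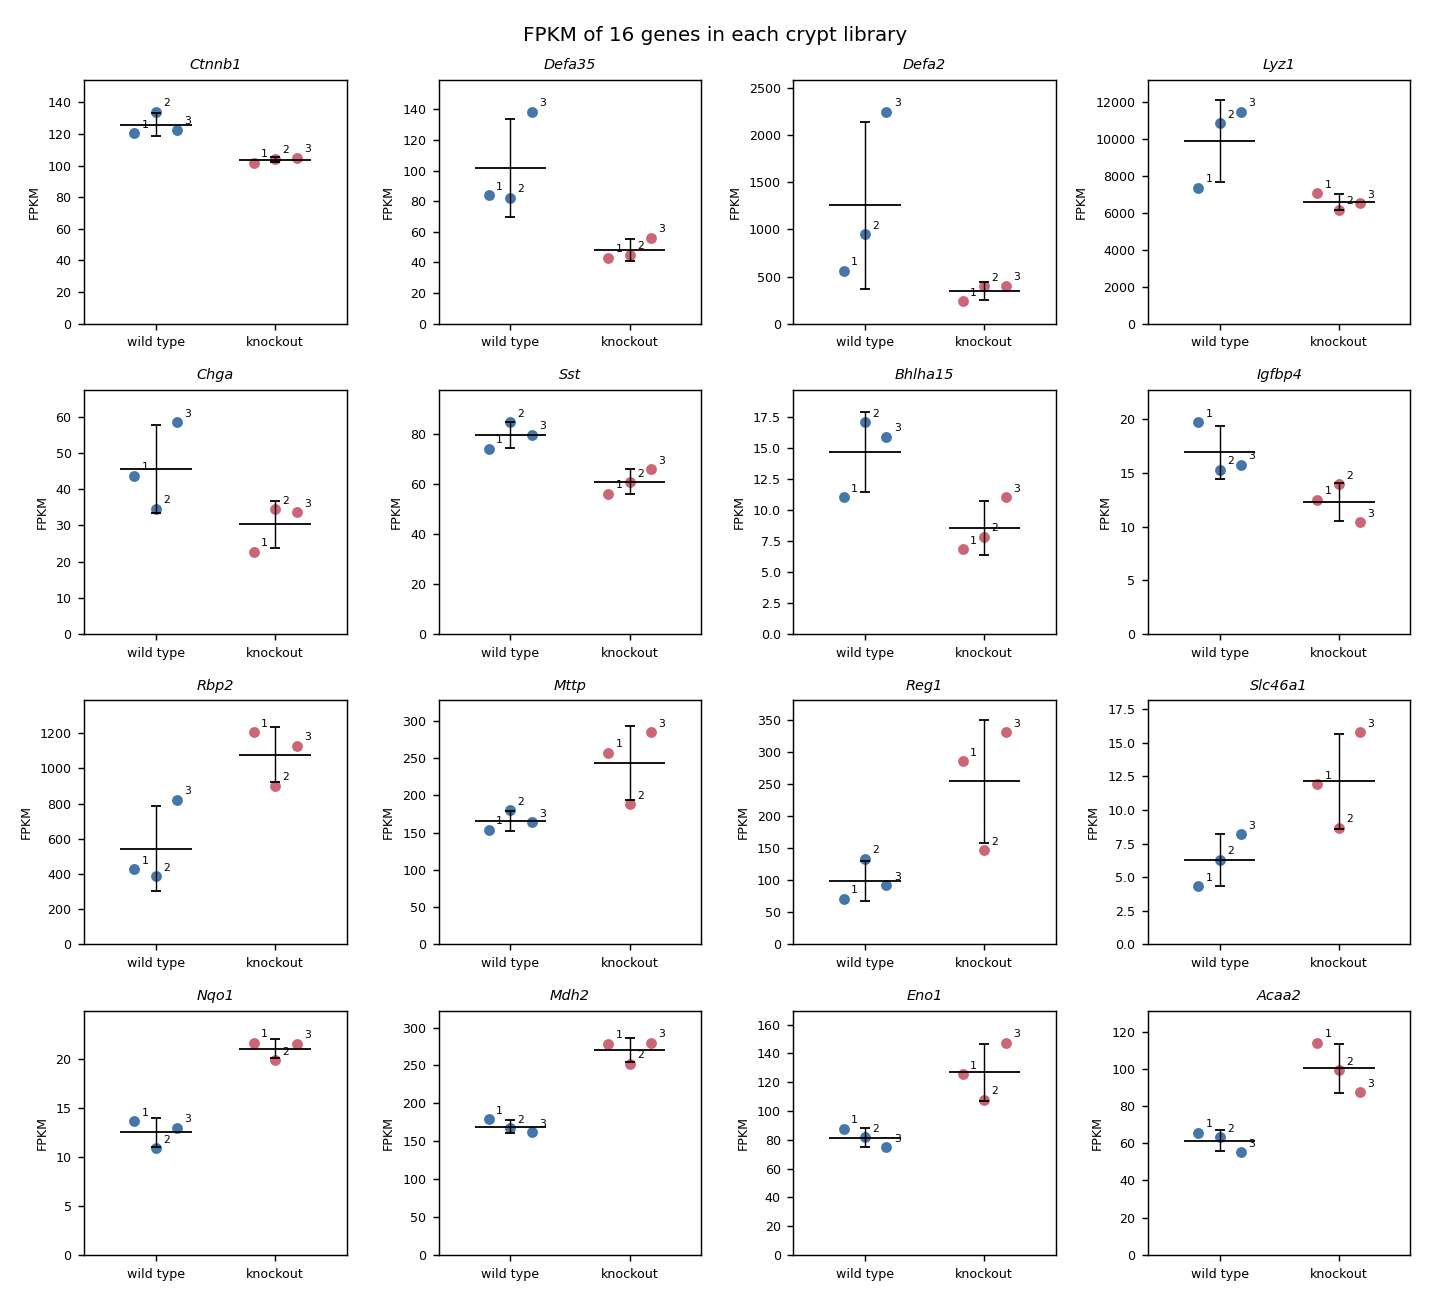
FPKM of 16 genes in each crypt library, with group mean and standard deviation (n = 3 per genotype). Numbers beside points are replicate numbers.

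Among absorptive genes, those for fat and retinoid handling were mostly higher in knockout crypts. Of 31 lipid absorption genes 30 were tested, and 28 were higher in knockout crypts, 4 at unadjusted p under 0.05 (3.48% of all genes). In 4 (13.3%) the groups did not overlap, against 6.79% of all genes. As a list, the median was 0.31, and 0.16 without wild-type replicate 1 and 0.49 without wild-type replicate 3. Summed FPKM was 4182, 5994 and 10882 in wild-type libraries and 8652, 6558 and 9683 in knockout libraries, where wild-type replicate 3 was the highest of the 6.

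The triglyceride transfer gene *Mttp* was at 154, 179.9 and 164 FPKM in wild-type libraries and 257, 188 and 284 FPKM in knockout libraries. Every knockout value was higher, with a log2 fold change of 0.53, standard error 0.19, limma adjusted p = 0.806. *Tm6sf2*, another gene of lipoprotein assembly, was at 80.2, 94.1 and 102 FPKM in wild-type libraries and 134, 114 and 137 FPKM in knockout libraries, again higher in all 3 (log2 fold change of 0.47, limma adjusted p = 0.797). The fatty acid carrier gene *Fabp2*, most abundant of the list, was at 1333, 2327 and 3503 FPKM in wild-type libraries and 3280.1, 2485 and 3974 FPKM in knockout libraries, with wild-type replicate 3 among the knockout values. The apolipoprotein gene *Apoa1* was at 1070.2, 1520.1 and 3692 FPKM in wild-type libraries and 2060.2, 1659.8 and 2209 FPKM in knockout libraries, and wild-type replicate 3 was the highest. The pancreatic colipase gene *Clps* is listed both here and with Paneth cell products, and was at 170.3, 268 and 420.4 FPKM in wild-type libraries and 192, 148 and 243 FPKM in knockout libraries.

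Of 16 retinoid handling genes 13 were tested, and 10 were higher in knockout crypts, 3 at unadjusted p under 0.05 and 3 (23.1%) without overlap, against 3.48% and 6.79% of all genes. As a list, the median was 0.54, with 0.21 without wild-type replicate 1, 0.69 without knockout replicate 2 and 0.28 when listed genes under the level cutoff were kept. The retinol carrier gene *Rbp2* was at 427, 386 and 823 FPKM in wild-type libraries and 1205, 903 and 1129 FPKM in knockout libraries. The lowest knockout value was above wild-type replicate 3, with a log2 fold change of 1.06, standard error 0.32, limma adjusted p = 0.797. The retinol saturase gene *Retsat* was at 11.4, 10.3 and 15.96 FPKM in wild-type libraries and 23.4, 16.3 and 19.3 FPKM in knockout libraries. In knockout crypts all 3 values were higher, and knockout replicate 2 was close to wild-type replicate 3 (log2 fold change of 0.64, limma adjusted p = 0.797). The carotene-cleaving gene *Bco1*, by contrast, was at 0.787, 1.13 and 2.68 FPKM in wild-type libraries and 0.725, 0.962 and 2.16 FPKM in knockout libraries, with full overlap.

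Genes that mark positions along the small intestine were read beside these lists, because many absorptive genes vary along the organ. Of 15 proximal genes 13 were tested, with 8 higher in knockout crypts, 2 at unadjusted p under 0.05 and 3 (23.1%) without overlap, against 3.48% and 6.79% of all genes. Summed FPKM was 156, 197 and 255 in wild-type libraries and 300.5, 192 and 372 in knockout libraries, with the lactase gene *Lct* as the most abundant member. The list median was 0.22, 0.11 without knockout replicate 3 and 0.34 without knockout replicate 2. The folate transporter gene *Slc46a1* was at 4.32, 6.31 and 8.22 FPKM in wild-type libraries and 11.9, 8.68 and 15.8 FPKM in knockout libraries. All knockout values were higher, with a log2 fold change of 0.90, standard error 0.28, limma adjusted p = 0.797. *Gata4*, a transcription factor of the proximal intestine, was at 30.7, 20.4 and 25.8 FPKM in wild-type libraries and 37.5, 31.1 and 32.02 FPKM in knockout libraries, without overlap (log2 fold change of 0.40 and 0.24 without wild-type replicate 2, limma adjusted p = 0.849). The calcium carrier gene *S100g* was at 5.65, 41.7 and 13.95 FPKM in wild-type libraries and 51.8, 30.2 and 103 FPKM in knockout libraries, with wild-type replicate 2 inside the knockout range.

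Of 10 ileal bile acid genes 9 were tested, with 8 lower in knockout crypts and 1 (11.1%) without overlap, against 5.15% of all genes. The list median of -0.30 was -0.08 without wild-type replicate 3 and -0.66 without wild-type replicate 1. Summed FPKM was 339, 1468 and 3116 in wild-type libraries and 998, 912 and 1017 in knockout libraries, with *Fabp6*, the ileal bile acid carrier gene, as the most abundant member. Among wild-type libraries replicate 1 was the lowest and replicate 3 the highest, as for the alpha-defensin sum. *Fabp6* was at 135, 991 and 2619 FPKM in wild-type libraries and 678, 617 and 661 FPKM in knockout libraries. The bile acid uptake gene *Slc10a2* was at 14.6, 70.6 and 58.4 FPKM in wild-type libraries and 15.1, 16.3 and 33.8 FPKM in knockout libraries, with overlap. The bile acid receptor gene *Nr1h4* was at 25.2, 34.8 and 26.1 FPKM in wild-type libraries and 17.3, 24.8 and 21.7 FPKM in knockout libraries, lower in all 3 knockout libraries (log2 fold change of -0.42 and -0.28 without wild-type replicate 2, limma adjusted p = 0.849). The part of intestinal region in these differences was not tested.

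**Figure D3:**
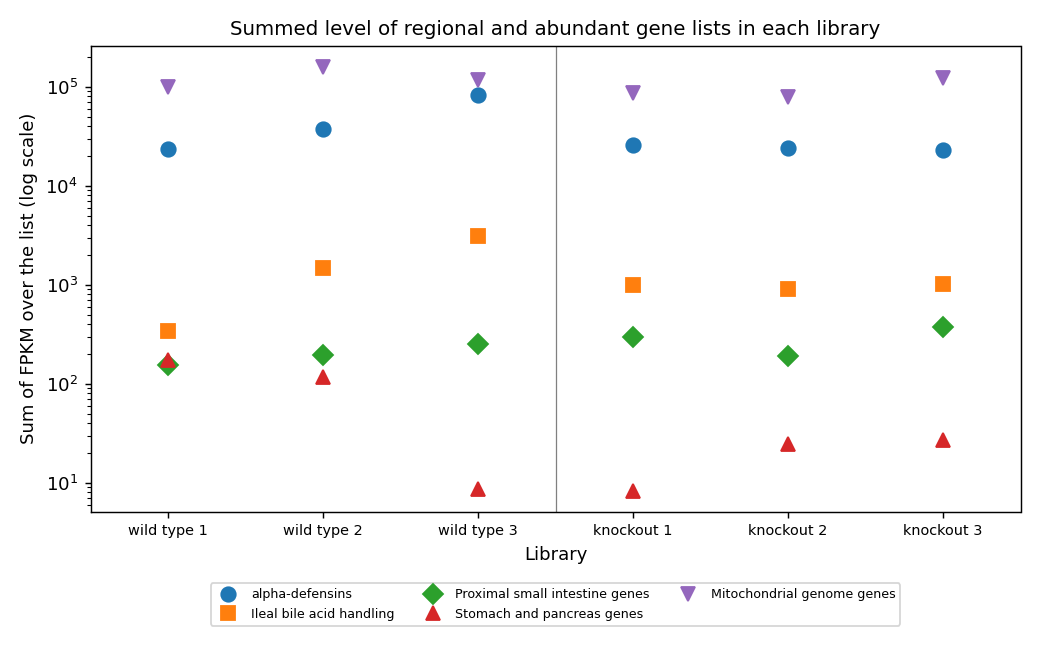
Summed FPKM of 5 gene lists in each crypt library, on a log axis. The median of the stomach and pancreas list reversed direction under 1 alternative scaling.

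Brush border and villus genes showed no common direction. Of 39 brush border genes 25 were higher in knockout crypts, with 0 at unadjusted p under 0.05 and 0 without overlap. Among all genes these shares were 3.48% and 6.79% on the high side and 2.36% and 5.15% on the low side. The list median of 0.07 was 0.32 without wild-type replicate 3 and -0.17 without wild-type replicate 1. The sucrase-isomaltase gene *Sis* was at 262, 305 and 379 FPKM in wild-type libraries and 336, 244 and 545 FPKM in knockout libraries, overlapping. The alkaline phosphatase gene *Alpi* was at 65.8, 139 and 169 FPKM in wild-type libraries and 184, 128 and 261 FPKM in knockout libraries, where only wild-type replicate 1 was outside the knockout range on the low side. Of 7 villus tip genes 3 were higher and 4 lower, with a median of -0.02 that reversed under 1 scaling and in 4 of 6 fits with 1 library left out (-0.36 without wild-type replicate 1, 0.18 without wild-type replicate 2).

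Genes of the crypt base leaned slightly low. Of 37 stem cell genes 36 were tested, with 23 lower in knockout crypts and 3 of these at unadjusted p under 0.05 (2.36% of all genes). The groups did not overlap for 5 on the low side (13.9%, against 5.15% of all genes) and 1 on the high side (2.78%, against 6.79%). Their median was -0.10, and -0.05 without wild-type replicate 1 and -0.22 without wild-type replicate 3. The most abundant member, the stem cell glycoprotein gene *Olfm4*, was at 960.3, 755 and 530.4 FPKM in wild-type libraries and 964, 807 and 723 FPKM in knockout libraries, with full overlap. *Ascl2*, a stem cell transcription factor, was at 14.2, 19.3 and 10.4 FPKM in wild-type libraries and 18.5, 11.2 and 13.9 FPKM in knockout libraries, also overlapping. *Igfbp4*, which encodes a secreted growth factor binding protein, was at 19.7, 15.3 and 15.7 FPKM in wild-type libraries and 12.5, 13.9 and 10.4 FPKM in knockout libraries. Each knockout library was lower, with a log2 fold change of -0.45, standard error 0.16, limma adjusted p = 0.806. The gastrokine gene *Gkn3* was at 42.9, 29.3 and 11.5 FPKM in wild-type libraries and 9.76, 13.5 and 7.901 FPKM in knockout libraries, with wild-type replicate 3 inside the knockout range and a log2 fold change of -1.23. *Gkn3* is also a stomach gene, and wild-type replicates 1 and 2 carried other stomach transcripts.

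Of 73 replication and mitosis genes 58 were higher in knockout crypts. In either direction 0 reached an unadjusted p under 0.05 (3.48% higher and 2.36% lower of all genes). For 2 (2.74%) the groups did not overlap, both lower, against 5.15% of all genes. The median of the list was 0.12 and was 0.01 without wild-type replicate 3 and 0.26 without wild-type replicate 1. The proliferation antigen gene *Mki67* was at 31.1, 20.6 and 16.4 FPKM in wild-type libraries and 24.1, 24.1 and 20.9 FPKM in knockout libraries, overlapping. The cyclin gene *Ccnb2* was at 34.4, 26.2 and 22.2 FPKM in wild-type libraries and 36.5, 39.96 and 29.2 FPKM in knockout libraries, where wild-type replicate 1 overlapped. The mitotic kinase gene *Plk1* was at 31.4, 31.6 and 40.9 FPKM in wild-type libraries and 31.3, 29.2 and 27.1 FPKM in knockout libraries, with each knockout value lower by a small margin (log2 fold change of -0.23 and -0.11 without wild-type replicate 3, limma adjusted p = 0.893).

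Of 24 genes of fetal-like regenerative epithelium 15 were tested, and 13 were lower in knockout crypts. Of these, 0 were at unadjusted p under 0.05 and 1 (6.67%) was without overlap, against 2.36% and 5.15% of all genes. As a list, the median was -0.20, with -0.35 without wild-type replicate 1 and -0.08 when listed genes under the level cutoff were kept. The clusterin gene *Clu*, a marker of regenerating cells, was at 2.69, 2.09 and 1.47 FPKM in wild-type libraries and 0.929, 2.38 and 0.870 FPKM in knockout libraries, with overlap. *Ly6a*, another regeneration marker, was at 4.45, 5.92 and 4.76 FPKM in wild-type libraries and 3.67, 5.697 and 5.38 FPKM in knockout libraries, also with overlap.

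**Figure D4:**
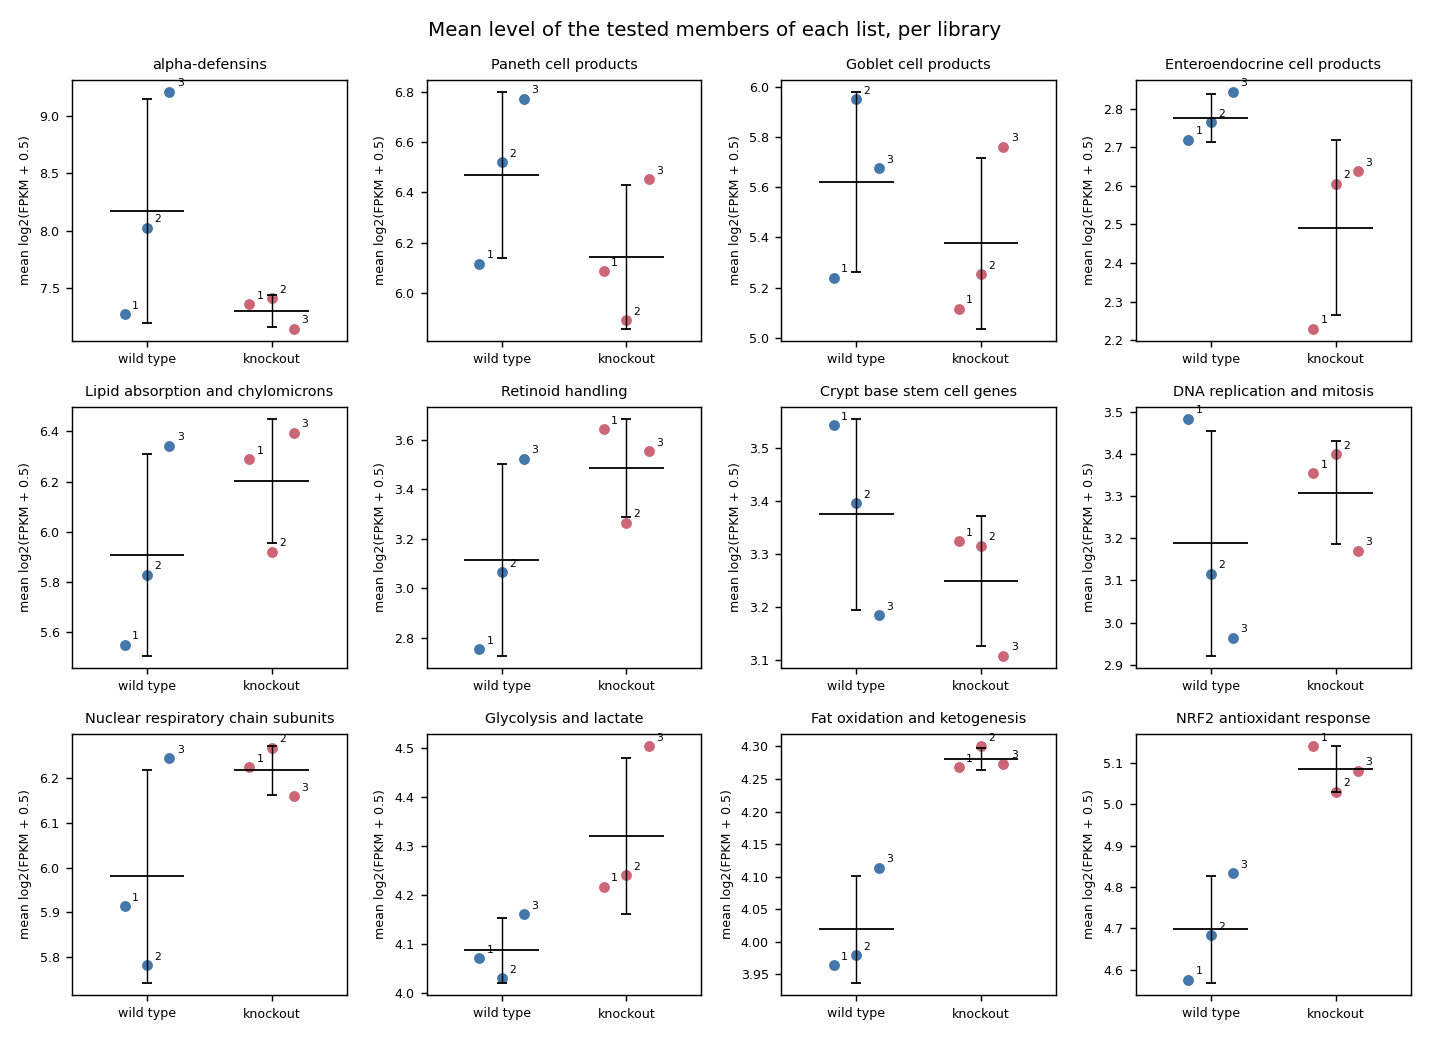
Mean log2(FPKM + 0.5) of the tested members of 12 gene lists in each crypt library, with group mean and standard deviation (n = 3 per genotype). Numbers beside points are replicate numbers.

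Of all lists, nuclear genes of the respiratory chain had the largest share of members without overlap. Of 78 nuclear-encoded subunits of the respiratory chain and ATP synthase, 67 were higher in knockout crypts, 28 at unadjusted p under 0.05 (3.48% of all genes), and 0 were lower at that level. For 36 (46.2%) the groups did not overlap, against 6.79% of all genes. As a list, the median was 0.25, 0.16 without wild-type replicate 2 and 0.35 without wild-type replicate 3. Mean log2 level was 5.91, 5.78 and 6.24 in wild-type libraries and 6.22, 6.27 and 6.16 in knockout libraries, so wild-type replicate 3 was as high as the knockout libraries. Subunits without overlap numbered 16 of 37 in complex I, 3 of 4 in complex II, 6 of 9 in complex III, 4 of 12 in complex IV and 7 of 16 in ATP synthase. Medians minus the all-gene median were 0.20, 0.34, 0.28, 0.22 and 0.29 in the same order.

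The complex I gene *Ndufa11* was at 46.8, 40.00 and 50.4 FPKM in wild-type libraries and 72.95, 75.7 and 62.7 FPKM in knockout libraries. Every knockout value was higher, with a log2 fold change of 0.62, standard error 0.14, limma adjusted p = 0.728. The complex II gene *Sdhb* was at 97.5, 92.1 and 83.1 FPKM in wild-type libraries and 146, 124 and 129.7 FPKM in knockout libraries. Again all knockout values were higher, with a log2 fold change of 0.55, standard error 0.13, limma adjusted p = 0.74. The complex IV gene *Cox4i1* was at 283, 264 and 318 FPKM in wild-type libraries and 356, 371 and 331 FPKM in knockout libraries, a smaller difference without overlap (log2 fold change of 0.29, limma adjusted p = 0.86). The ATP synthase gene *Atp5b* was at 405, 372 and 396 FPKM in wild-type libraries and 454, 463 and 466 FPKM in knockout libraries, likewise without overlap (log2 fold change of 0.24, limma adjusted p = 0.89).

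The letters of the motif of NRF1, a regulator of mitochondrial genes, GCGCANGCG or the complement CGCNTGCGC, occurred in 21 of 69 promoters of the respiratory list (30.4%), which cover 64 of its 78 genes. They occurred in 2053 of 32851 promoters of all genes (6.25%), in 12.8% of the promoters of tested genes in 5 of 21 of heat shock genes (23.8%), in 4 of 20 of cholesterol synthesis genes (20%) and in 4 of 31 of fat oxidation genes (12.9%). The *Ndufa11* promoter (chr17:56717512-56717811, plus strand, 300 bases of RefSeq GRCm38.p6) held 2 overlapping matches (capitals), the first at position -60 from the start site, and is shown because its gene was among the most different subunits.

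Ndufa11: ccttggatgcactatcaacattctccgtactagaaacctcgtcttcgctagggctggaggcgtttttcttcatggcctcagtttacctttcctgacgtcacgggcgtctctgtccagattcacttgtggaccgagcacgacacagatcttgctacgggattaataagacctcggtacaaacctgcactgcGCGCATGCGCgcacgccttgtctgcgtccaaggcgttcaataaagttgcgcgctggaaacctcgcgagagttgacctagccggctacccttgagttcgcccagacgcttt

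Transcripts of the mitochondrial genome itself lay on the other side. All 13 were lower in knockout crypts, 1 at unadjusted p under 0.05 and 1 (7.69%) without overlap, against 2.36% and 5.15% of all genes. Their median was -0.45, with -0.27 without wild-type replicate 2 and -0.67 without knockout replicate 3. Quantile normalization gives the most abundant genes nearly the same value in every library, and the list median was then -0.01, with members on both sides. Summed FPKM was 99833, 158309 and 118304 in wild-type libraries and 87113, 79361 and 122511 in knockout libraries, with knockout replicate 3 above 2 of the 3 wild-type libraries. The cytochrome oxidase gene *mt-Co1* was at 36036, 56119.7 and 46749 FPKM in wild-type libraries and 33843, 30180.0 and 45318 FPKM in knockout libraries, overlapping, and under quantile normalization it had no difference left. The 1 gene without overlap was *mt-Atp8*, an ATP synthase gene whose reading frame overlaps *mt-Atp6*, at 19.95, 44.9 and 46.3 FPKM in wild-type libraries and 12.04, 5.27 and 19.89 FPKM in knockout libraries. Knockout replicate 3 was only just under wild-type replicate 1, with a log2 fold change of -1.63, standard error 0.51, limma adjusted p = 0.797.

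Of 24 glycolysis and lactate genes 23 were tested, and 19 were higher in knockout crypts, 8 at unadjusted p under 0.05 and 8 (34.8%) without overlap, against 3.48% and 6.79% of all genes. The list median was 0.35 and stayed between 0.28 and 0.36 with 1 library left out. Summed FPKM was 1438, 1385 and 1564 in wild-type libraries and 1926, 1793 and 2117 in knockout libraries, higher in all 3 knockout libraries. The enolase gene *Eno1* was at 87.8, 81.8 and 75.01 FPKM in wild-type libraries and 125, 108 and 147 FPKM in knockout libraries. The groups did not overlap, with a log2 fold change of 0.63, standard error 0.16, limma adjusted p = 0.743. The phosphoglycerate kinase gene *Pgk1* was at 98.5, 85.2 and 92.7 FPKM in wild-type libraries and 122, 126 and 129 FPKM in knockout libraries, higher in all 3 (log2 fold change of 0.45, limma adjusted p = 0.757). The lactate dehydrogenase gene *Ldha* was at 285, 258 and 284 FPKM in wild-type libraries and 346, 357 and 386 FPKM in knockout libraries, also without overlap (log2 fold change of 0.40, limma adjusted p = 0.806). The hexokinase gene *Hk2*, the entry step, was at 20.5, 17.5 and 12.9 FPKM in wild-type libraries and 9.34, 16.7 and 11.4 FPKM in knockout libraries, on the low side with overlap (log2 fold change of -0.44 and -0.26 without knockout replicate 1). *Gapdh*, a central enzyme with many pseudogene copies, was listed at only 2.33, 2.23 and 5.22 FPKM in wild-type libraries and 1.92, 1.83 and 3.600 FPKM in knockout libraries, and its level is uncertain.

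Fat oxidation and ketogenesis had 35 tested genes of 38, of which 31 were higher in knockout crypts, 9 at unadjusted p under 0.05 and 13 (37.1%) without overlap, against 3.48% and 6.79% of all genes. Their median was 0.26, and 0.19 under quantile normalization. Summed FPKM was 925, 945 and 970.2 in wild-type libraries and 1220.5, 1130.0 and 1164 in knockout libraries, without overlap. The thiolase gene *Acaa2* was at 65.7, 63.2 and 55.1 FPKM in wild-type libraries and 114, 99.1 and 87.5 FPKM in knockout libraries. Every knockout value was higher, with a log2 fold change of 0.70, standard error 0.15, limma adjusted p = 0.728. The dehydrogenase gene *Acadm* was at 23.01, 26.96 and 28.6 FPKM in wild-type libraries and 35.8, 34.4 and 31.3 FPKM in knockout libraries, without overlap (log2 fold change of 0.37, limma adjusted p = 0.806). The transport gene *Cpt1a* was at 35.6, 27.7 and 28.5 FPKM in wild-type libraries and 33.3, 43.2 and 25.4 FPKM in knockout libraries, overlapping.

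Cholesterol synthesis and ribosomal protein genes lay closer to all genes. Of 25 cholesterol synthesis genes 10 were higher and 15 lower in knockout crypts, with 0 at unadjusted p under 0.05 (3.48% higher and 2.36% lower of all genes). For 1 on the high side (4%) the groups did not overlap, against 6.79% of all genes. The list median of -0.03 reversed in 3 of 6 fits with 1 library left out (-0.30 without wild-type replicate 1, 0.07 without wild-type replicate 2). Of 84 ribosomal protein genes 81 were tested, with 58 higher, 1 higher at unadjusted p under 0.05 and 1 lower (3.48% and 2.36% of all genes). For 2 (2.47%) the groups did not overlap, both lower, against 5.15% of all genes. The list median was 0.10 (0.01 without knockout replicate 2, 0.23 without knockout replicate 3). Several have near-identical copies. *Rpl24* was listed at 1.44, 2.03 and 1.18 FPKM in wild-type libraries and 3.28, 4.11 and 1.73 FPKM in knockout libraries. These values were far under subunits such as *Rplp0*, *Rps6* and *Rpl14*. *Rps10* was also low, with a mean of 3.69 FPKM in wild-type libraries and 2.67 FPKM in knockout libraries.

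**Figure D5:**
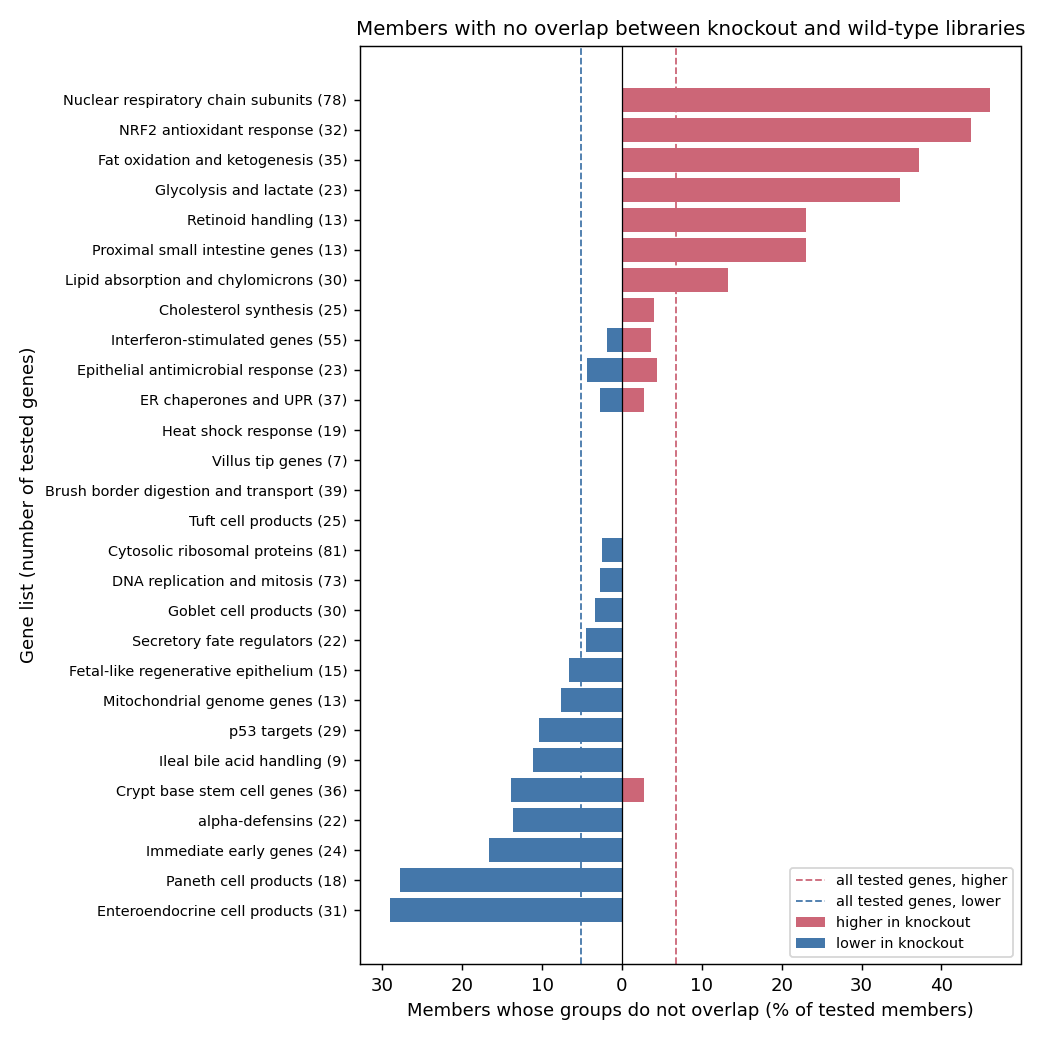
Share of each list whose 3 knockout values all lay above or all below the 3 wild-type values, with the shares of all tested genes (dashed, 6.79% higher and 5.15% lower).

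Stress lists did not share a direction. The one with most genes apart held targets of the antioxidant regulator NRF2. Of 34 listed 32 were tested, and 27 were higher in knockout crypts, 12 at unadjusted p under 0.05 and 14 (43.8%) without overlap, against 3.48% and 6.79% of all genes, with 0 in either class on the low side. The median of the list was 0.28, between 0.25 and 0.35 with 1 library left out and 0.17 under quantile normalization. Summed FPKM was 3185, 3223 and 3120.0 in wild-type libraries and 4599, 4434 and 4103 in knockout libraries, without overlap, and the ferritin gene *Fth1* was the most abundant member. The quinone reductase gene *Nqo1* was at 13.7, 10.9 and 13.02 FPKM in wild-type libraries and 21.7, 19.9 and 21.6 FPKM in knockout libraries. Every knockout value was higher, with a log2 fold change of 0.73, standard error 0.12, limma adjusted p = 0.728. Among protein-coding genes with a mean of at least 5 FPKM, *Nqo1* had the lowest unadjusted p. The aldo-keto reductase gene *Akr1b8* was at 2.63, 3.01 and 2.68 FPKM in wild-type libraries and 4.22, 5.61 and 4.23 FPKM in knockout libraries, without overlap (log2 fold change of 0.66, limma adjusted p = 0.728). The thioredoxin reductase gene *Txnrd1* was at 38.4, 35.8 and 34.4 FPKM in wild-type libraries and 39.6, 43.02 and 40.6 FPKM in knockout libraries, a small difference without overlap (log2 fold change of 0.18 and 0.08 under quantile normalization, limma adjusted p = 0.891). *Gclc*, for glutathione synthesis, was at 17.99, 20.1 and 18.1 FPKM in wild-type libraries and 14.9, 14.5 and 23.3 FPKM in knockout libraries, with the knockout values on both sides.

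The core letters of the antioxidant response element, TGACNNNGC or the complement GCNNNGTCA, occurred in 11 of 34 promoters of the NRF2 list (32.4%), which cover 28 of its 32 genes. They occurred in 4071 of 32851 promoters of all genes (12.4%), in 14.5% of the promoters of tested genes in 8 of 31 of chaperone and unfolded protein response genes (25.8%), in 2 of 5 of B and plasma cell markers (40%), in 1 of 3 of erythroid markers (33.3%), in 3 of 10 of myeloid and mast cell markers (30%), in 4 of 16 of Paneth cell genes (25%) and in 0 of 12 alpha-defensin promoters. *Prdx1* and *Ugdh* were chosen as examples after their values were seen. The peroxiredoxin gene *Prdx1* was at 229, 217 and 186 FPKM in wild-type libraries and 280.3, 302 and 309 FPKM in knockout libraries. The groups did not overlap (log2 fold change of 0.50, limma adjusted p = 0.797), and the promoter (chr4:116685349-116685648, plus strand, 300 bases of RefSeq GRCm38.p6) held 1 match (capitals), at position -133.

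Prdx1: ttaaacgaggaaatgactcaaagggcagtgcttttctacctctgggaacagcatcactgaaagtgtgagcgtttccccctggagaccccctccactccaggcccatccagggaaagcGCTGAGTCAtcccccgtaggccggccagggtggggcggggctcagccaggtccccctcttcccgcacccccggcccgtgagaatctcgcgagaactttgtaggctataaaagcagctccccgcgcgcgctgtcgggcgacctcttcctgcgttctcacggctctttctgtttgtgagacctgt

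*Ugdh*, for UDP-glucuronate synthesis, was at 17.9, 21.4 and 23.7 FPKM in wild-type libraries and 33.9, 26.1 and 35.2 FPKM in knockout libraries. In knockout crypts all 3 values were higher (log2 fold change of 0.58, limma adjusted p = 0.771), and the promoter (chr5:65435793-65436092, minus strand) held 2 matches, the first at position -132.

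Ugdh: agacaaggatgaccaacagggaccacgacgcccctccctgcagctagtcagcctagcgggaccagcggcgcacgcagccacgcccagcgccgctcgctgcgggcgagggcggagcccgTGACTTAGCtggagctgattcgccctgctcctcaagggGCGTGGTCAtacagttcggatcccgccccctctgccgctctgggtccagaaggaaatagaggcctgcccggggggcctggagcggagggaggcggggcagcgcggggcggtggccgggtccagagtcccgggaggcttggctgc

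The 37 chaperone and unfolded protein response genes had 16 higher and 21 lower in knockout crypts, 2 of these at unadjusted p under 0.05 (2.36% of all genes). The groups did not overlap for 1 on each side (2.70%), against 6.79% of all genes higher and 5.15% lower. The list had a median of -0.04 that reversed in 1 fit with 1 library left out (0.07 without knockout replicate 1). The chaperone gene *Hspa5* was at 263, 224 and 130.4 FPKM in wild-type libraries and 146, 227 and 244 FPKM in knockout libraries, overlapping. The disulfide isomerase gene *P4hb* was at 472, 545 and 522 FPKM in wild-type libraries and 709, 581 and 709 FPKM in knockout libraries, higher in all 3 (log2 fold change of 0.37, limma adjusted p = 0.857). *Ppp1r15a*, which reverses translational arrest after stress, was at 2.44, 1.85 and 2.58 FPKM in wild-type libraries and 1.44, 1.12 and 1.09 FPKM in knockout libraries. Every knockout value was lower, with a log2 fold change of -0.70, standard error 0.18, limma adjusted p = 0.757. Of 21 heat shock genes 19 were tested, with 10 higher and 9 lower. For 0 of them the groups did not overlap, against 6.79% of all genes higher and 5.15% lower. The heat shock median reversed in 2 of 6 fits with 1 library left out (-0.15 without knockout replicate 2, 0.20 without wild-type replicate 1). The inducible heat shock gene *Hspa1b* was at 32.9, 4.503 and 17.8 FPKM in wild-type libraries and 0.438, 32.2 and 4.27 FPKM in knockout libraries, varying widely within each genotype.

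Immediate early genes, which respond to handling as well as to signals, had 24 tested of 28. Of these 16 were lower in knockout crypts, 3 at unadjusted p under 0.05 and 4 (16.7%) without overlap, against 2.36% and 5.15% of all genes, and the list median was -0.17, or -0.01 without knockout replicate 1 and -0.28 without wild-type replicate 1. The cytokine feedback gene *Socs3* was at 18.7, 20.5 and 37.2 FPKM in wild-type libraries and 11.9, 14.7 and 14.7 FPKM in knockout libraries. All knockout values were lower, with a log2 fold change of -0.80 and -0.50 without wild-type replicate 3, standard error 0.26, limma adjusted p = 0.799. The transcription factor gene *Jun* was at 20.6, 17.6 and 18.3 FPKM in wild-type libraries and 16.7, 15.2 and 15.9 FPKM in knockout libraries, a small difference without overlap (log2 fold change of -0.23, limma adjusted p = 0.86). Its partner gene *Fos* was at 35.7, 51.2 and 81.9 FPKM in wild-type libraries and 17.97, 55.6 and 65.4 FPKM in knockout libraries, overlapping. *Egr1*, a rapid response factor, was at 6.24, 2.16 and 13.8 FPKM in wild-type libraries and 2.26, 17.3 and 1.54 FPKM in knockout libraries, with knockout replicate 2 the highest, as it was close to the highest for *Hspa1b*.

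Neither p53 targets nor interferon genes showed a common direction. Of 30 p53 targets 29 were tested, with 13 higher, 16 lower and 0 at unadjusted p under 0.05 (3.48% higher and 2.36% lower of all genes). For 3 on the low side (10.3%) the groups did not overlap, against 5.15% of all genes. The p53 median of -0.03 reversed under 1 scaling and in 2 of 6 fits with 1 library left out. The cell cycle inhibitor gene *Cdkn1a* was at 27.6, 42.3 and 51.7 FPKM in wild-type libraries and 29.99, 33.6 and 52.1 FPKM in knockout libraries, overlapping. Of 56 interferon-stimulated genes 55 were tested, with 25 higher and 30 lower, 1 of these at unadjusted p under 0.05 (2.36% of all genes). The groups did not overlap for 2 on the high side (3.64%) and 1 on the low side (1.82%), against 6.79% and 5.15% of all genes. The median of -0.03 reversed in 2 of 6 fits with 1 library left out (-0.09 without knockout replicate 3, 0.11 without knockout replicate 2). The guanylate-binding protein gene *Gbp3* was at 2.45, 2.16 and 2.09 FPKM in wild-type libraries and 1.41, 1.46 and 1.57 FPKM in knockout libraries. Each knockout library was lower, with a log2 fold change of -0.46, standard error 0.14, limma adjusted p = 0.797. The immunoproteasome gene *Psmb9* was at 26.6, 22.9 and 19.8 FPKM in wild-type libraries and 29.6, 29.01 and 27.6 FPKM in knockout libraries, higher in all 3 (log2 fold change of 0.32, limma adjusted p = 0.849). *Isg15*, a ubiquitin-like modifier, was at 12.5, 13.3 and 32.8 FPKM in wild-type libraries and 15.2, 11.5 and 14.2 FPKM in knockout libraries, overlapping.

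Of 31 epithelial antimicrobial and inflammatory genes 23 were tested, with 11 higher, 1 of these at unadjusted p under 0.05 (3.48% of all genes), and 12 lower. For 1 on each side (4.35%) the groups did not overlap, against 6.79% of all genes higher and 5.15% lower. The median of -0.08 reversed in 1 fit with 1 library left out (-0.20 without knockout replicate 3, 0.01 without wild-type replicate 2). Members of the Reg family of secreted lectins differed in direction. *Reg1* was at 71.2, 134 and 92.2 FPKM in wild-type libraries and 286, 147 and 331 FPKM in knockout libraries. In knockout crypts all 3 values were higher, knockout replicate 2 by little, with a log2 fold change of 1.32, standard error 0.36, limma adjusted p = 0.757. *Reg3g* was at 820.4, 1221 and 880.4 FPKM in wild-type libraries and 529.9, 737 and 768 FPKM in knockout libraries, lower in all 3 (log2 fold change of -0.52 and -0.34 without wild-type replicate 2, limma adjusted p = 0.857). *Reg3b* was at 1902, 3569.7 and 2855 FPKM in wild-type libraries and 1689.7, 2011 and 2484 FPKM in knockout libraries, with overlap. Reg genes resemble each other, so single members are uncertain.

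Protein-coding genes with a mean of at least 5 FPKM, in or outside the lists, were then ranked by p. The 10 with the lowest p on the high side were *Nqo1*, *Snx20*, *Casp6*, *Endog*, *Ckb*, *Mdh2*, *Ugt1a7c*, *Akr1c13*, *Eif2s3y* and *Akr1c19*. The endosomal sorting gene *Snx20* was at 5.36, 5.33 and 5.24 FPKM in wild-type libraries and 7.71, 9.27 and 10.1 FPKM in knockout libraries. Wild-type values were nearly equal and all knockout values higher, with a log2 fold change of 0.70, standard error 0.13, limma adjusted p = 0.728. The executioner caspase gene *Casp6* was at 15.7, 12.03 and 11.7 FPKM in wild-type libraries and 28.1, 21.4 and 23.7 FPKM in knockout libraries, without overlap (log2 fold change of 0.87, limma adjusted p = 0.728). The creatine kinase gene *Ckb* was at 74.1, 47.6 and 54.3 FPKM in wild-type libraries and 125, 102 and 118 FPKM in knockout libraries, higher in all 3 (log2 fold change of 0.98, limma adjusted p = 0.728). The mitochondrial malate dehydrogenase gene *Mdh2* was at 179, 167 and 162 FPKM in wild-type libraries and 279, 252 and 280.0 FPKM in knockout libraries, also higher in all 3 (log2 fold change of 0.67, limma adjusted p = 0.728). The detoxification gene *Akr1c13* was at 38.2, 35.02 and 42.7 FPKM in wild-type libraries and 62.8, 62.8 and 54.9 FPKM in knockout libraries, without overlap (log2 fold change of 0.63, limma adjusted p = 0.728). *Akr1c13* and *Akr1c19* are close paralogs, and *Ugt1a7c*, which conjugates glucuronate, shares exons with neighboring Ugt1a genes, so these 3 are uncertain.

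The Y-linked translation gene *Eif2s3y* was at 6.71, 8.42 and 9.87 FPKM in wild-type libraries and 16.7, 13.5 and 14.4 FPKM in knockout libraries, higher in all 3 (log2 fold change of 0.81, limma adjusted p = 0.728). Other Y-linked genes, chosen after these values were seen, did not differ in this way. The helicase gene *Ddx3y* was at 8.32, 9.86 and 9.07 FPKM in wild-type libraries and 9.29, 9.35 and 9.31 FPKM in knockout libraries, and the demethylase gene *Kdm5d* was at 2.096, 2.78 and 2.697 FPKM in wild-type libraries and 2.65, 2.84 and 2.38 FPKM in knockout libraries. All 6 libraries therefore contain male RNA.

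On the low side, those with low p included *Defa35*, *Slc1a5*, *Mmp7*, *Wnt3*, *Cxxc5*, *Tifa*, *Pla2g2f*, *Sipa1* and *Lgmn*. The glutamine transporter gene *Slc1a5* was at 42.5, 41.7 and 41.3 FPKM in wild-type libraries and 30.3, 31.7 and 32.01 FPKM in knockout libraries. Spread within each genotype was small and all knockout values were lower, with a log2 fold change of -0.41, standard error 0.10, limma adjusted p = 0.743. The innate signaling adaptor gene *Tifa* was at 47.7, 50.3 and 38.1 FPKM in wild-type libraries and 28.8, 34.4 and 30.5 FPKM in knockout libraries, without overlap (log2 fold change of -0.53, limma adjusted p = 0.757). The lysosomal protease gene *Lgmn* was at 18.1, 20.5 and 22.3 FPKM in wild-type libraries and 12.96, 16.3 and 9.75 FPKM in knockout libraries, lower in all 3 (log2 fold change of -0.65, limma adjusted p = 0.797). The log2 fold change was -0.49 for the zinc finger gene *Cxxc5*, -0.60 for the secreted phospholipase gene *Pla2g2f* and -0.42 for the Rap regulator gene *Sipa1*.

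Markers of other cells were read in the same libraries. Of 22 T and intraepithelial lymphocyte markers all were tested, with 7 higher, 1 of these at unadjusted p under 0.05 (3.48% of all genes), and 15 lower in knockout crypts, and summed FPKM of 552, 587 and 739 in wild-type libraries and 614, 573 and 583 in knockout libraries, the granzyme gene *Gzma* being most abundant. Of 14 B and plasma cell markers 13 were tested and 12 were lower, 3 at unadjusted p under 0.05 (2.36% of all genes), with sums of 362, 359 and 279.6 in wild-type libraries and 263, 333 and 265 in knockout libraries, the immunoglobulin gene *Igkc* being most abundant. The joining chain gene *Jchain* was at 10.4, 14.4 and 11.4 FPKM in wild-type libraries and 8.102, 9.01 and 8.71 FPKM in knockout libraries, lower in all 3 (log2 fold change of -0.45, limma adjusted p = 0.797).

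Of 19 myeloid and mast cell markers 14 were tested and 10 were lower, with sums of 84.1, 63.5 and 85.3 in wild-type libraries and 75.9, 75.9 and 69.7 in knockout libraries, the mast cell protease gene *Mcpt1* being most abundant. The 5 tested of 18 stromal markers were all lower, 1 at unadjusted p under 0.05 (2.36% of all genes). All 18 summed to 18.2, 14.4 and 13.9 in wild-type libraries and 9.07, 14.6 and 10.1 in knockout libraries, the filament gene *Vim* being most abundant. The 13 endothelial markers, 3 of them tested, summed to 4.004, 4.79 and 4.54 in wild-type libraries and 3.83, 3.69 and 4.38 in knockout libraries. The most abundant was the adhesion gene *Esam*. The 6 erythroid markers, 3 of them tested, summed to 15.3, 10.9 and 17.9 in wild-type libraries and 7.32, 18.5 and 4.81 in knockout libraries, the globin gene *Hbb-bs* being most abundant. Of 20 stomach and pancreas genes 12 were tested, 6 in each direction, with 4 lower at unadjusted p under 0.05 (2.36% of all genes), 0 higher, and sums of 175, 117 and 8.56 in wild-type libraries and 8.36, 24.7 and 27.01 in knockout libraries, *Tff2* being most abundant. The median of this list was -0.02, reversed under 1 scaling and was -0.62 without wild-type replicate 3 and 0.41 without knockout replicate 1. The part of these cells in the epithelial results was not tested.

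With 3 libraries of each genotype and no gene passing adjustment, every gene named here is described by its values alone. Lists share genes and their members vary together between libraries, and the list medians carry no test. Alpha-defensin, ileal and brush border values depended on which wild-type library was left out, and the share of each intestinal region in a library was not measured. Region, the share of each cell type, the stomach transcripts of wild-type replicates 1 and 2 and the pancreatic transcripts were not separated from genotype. Protein levels and chromatin were not part of the comparison, and the strand used for counting is not stated, so overlapping genes are uncertain.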

How the data were processed

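Values are the FPKM deposited by the authors for 6 crypt libraries, with the gene length column of the same table. The submitters' notes name Cufflinks 2.2.1 for FPKM, whereas the paper's methods name featureCounts, and how FPKM was computed is not stated. Multiplying FPKM by gene length gave values in equal steps. Of the values checked (20132 of 21414 above 0 in wild-type replicate 1), 100% were whole within a tolerance of 0.1, and counts of fragments were recovered as the nearest whole number of steps. The median ratio of each library to the geometric mean was 1.01, so libraries had already been scaled to each other.

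Genes with mean FPKM of at least 0.5 were tested on log2(FPKM + 0.5), knockout against wild type, with limma 3.58.1 (variance trend, empirical Bayes) in R 4.3.3. The p-values were adjusted by Benjamini-Hochberg over all tested genes, with a threshold of 0.05. Exact permutation p used the 20 splits of FPKM. limma-voom on recovered fragments was the second tool, while DESeq2 was used only by the authors. Tables and figures were made with Python 3.11.15, pandas 2.3.3 and matplotlib 3.10.9.

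Lists were written from general knowledge of each program. Members and lists were chosen with earlier results of these data known. A list is described by counts and by its median log2 fold change minus the median of all tested genes, without a test. Summed FPKM covers all listed genes with a value, also those under the level cutoff. Named genes were list anchors, the 2 lowest p per direction in each list at 1 FPKM or more, and the 10 lowest p per direction among protein-coding genes at 5 FPKM or more. Fold changes of genes whose sign reversed under an alternative are not given. Promoters were searched on both strands for exact letters. The tumor table was not used.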

Additional observations from a re-analysis of the deposited data

How the results depend on the processing

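Of 57 alternative counts of genes, 50 were within 1.5 times of the reported count and 7 were not. Median-of-ratios scaling was among the alternatives. The libraries already had the same median ratio, so this scaling could hardly change a count or a list median. Genes with adjusted p under 0.05 numbered 0 in every fit but 1, and ranged from 0 to 3 with 1 library left out, with 3 without wild-type replicate 3. Genes higher at unadjusted p < 0.05 were 313 when rescaled without the 50 highest genes, and ranged from 241 to 735 with 1 library left out. Genes lower at unadjusted p < 0.05 were 635 with no filter on FPKM, and ranged from 217 to 641 with 1 library left out.

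Of 684 list medians under alternatives, 30 had the other sign, in 11 of 36 lists, and 11 moved by more than the spread of the list between replicates, which was wide for several lists. Retinoid handling was 0.28 with no filter on FPKM and ranged from 0.21 to 0.69 with 1 library left out. Fetal-like regenerative epithelium was -0.08 with no filter on FPKM and -0.31 at mean FPKM of at least 1. Fat oxidation and ketogenesis was 0.19 under quantile normalization and ranged from 0.21 to 0.32 with 1 library left out. The NRF2 antioxidant response was 0.17 under quantile normalization. Of 236 named genes with a fold change, 71 had the other sign under at least 1 alternative, and no fold change is printed for those.

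With a replicate block, 394 genes were higher and 338 lower at unadjusted p < 0.05, and 0 passed adjustment. The deviation of each gene from its group mean was then correlated between wild-type and knockout libraries. These correlations were -0.047, -0.122 and 0.037 for libraries of the same replicate number. By this measure no library correlated best with the one of its own number.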
